A study of Homo sapiens with 4 samples.

Results

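The matrix metalloproteinase (MMP) cluster on chromosome 11 was examined for open chromatin. It comprises 9 neighbouring genes, MMP7, MMP20, MMP27, MMP8, MMP10, MMP1, MMP3, MMP12 and MMP13 in chromosomal order, all on the minus strand and spread over 435 kb. A peak was assigned to the cluster when its summit lay in the body of a member or within 20 kb of one of its GENCODE transcription start sites (TSS). By this rule 20 of 101142 peaks were found in cells with KLF4 alone and 21 of 109486 peaks in cells with ΔNp63α and KLF4. Merged by overlap of at least 1 bp, they formed 27 loci, of which 14 held a peak of both lists. Peaks that reached the threshold of the study, a −log10 q of 10, are called open regions below. There were 12 open regions of 56680 in the first list and 8 of 62343 in the second.

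The cells were BJ, an established human skin fibroblast line, in which a tetracycline-controlled activator drove retroviral transgenes after addition of doxycycline. The control group (CTR) carried KLF4 alone, and the p63 group carried ΔNp63α wild type joined to KLF4, so that induced KLF4 was shared by all samples. Each group had 2 samples, which were repeated inductions of the same polyclonal line. The line differed between the groups, so a difference between the lines cannot be told apart from one due to p63. Accessibility was measured by ATAC-seq, where a transposase inserts adapters into open DNA, and the authors deposited 1 pooled peak list per group. No value below therefore carries an error between replicates, and no test between the groups was possible. The intervals given cover counting error only and take each read as independent. By the paper's methods, peaks were called from both replicates of a group. The peak names carry a pair of inputs, which could be replicates or read mates, and this could not be settled here. With read mates the intervals would be too narrow.

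MMPs are zinc-dependent proteases that are secreted as inactive precursors and cleave the proteins of the extracellular matrix. Their activity is held in check by the TIMP proteins, and several of them are activated by plasmin or by one another. Fibroblasts are a source of collagenase and stromelysin in wounds, and keratinocytes at a wound edge also produce some of these enzymes. Many MMP promoters are known targets of AP-1, a dimer of FOS and JUN proteins that recognises TGACTCA or TGAGTCA.

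The sequences that carry the AP-1 motif in the open regions are shown first, since this was the most frequent of the 5 motifs searched in the open regions. Each stretch is from hg38, chromosome 11, plus strand, with the motif in capitals, and lay within 100 bp of the summit of an open region away from a start site. The first was an open region of both lists between MMP7 and MMP20, at 102564313 to 102564359. The next lay in intron 6 of MMP20 at 102599760 to 102599806 and in intron 1 of MMP20 at 102621265 to 102621311. The remaining stretches lay upstream of MMP27 at 102709674 to 102709720, upstream of MMP3 at 102851509 to 102851555, in intron 4 of MMP12 at 102868477 to 102868523, and upstream of MMP13 at 102975043 to 102975089 and 102975124 to 102975170.
MMP7-MMP20 interval, open in both lists: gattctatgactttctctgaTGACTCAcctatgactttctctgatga
MMP20 intron 6, open in both lists: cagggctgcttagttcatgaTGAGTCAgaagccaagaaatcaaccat
MMP20 intron 1, open in the p63 list only: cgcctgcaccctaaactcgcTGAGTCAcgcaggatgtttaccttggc
MMP27 upstream, open in the p63 list only: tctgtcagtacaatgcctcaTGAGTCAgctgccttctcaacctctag
MMP3 upstream, open in both lists: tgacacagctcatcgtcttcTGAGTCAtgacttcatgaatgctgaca
MMP12 intron 4, open in the CTR list only: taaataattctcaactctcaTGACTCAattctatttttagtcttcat
MMP13 upstream, first motif, open in the CTR list only: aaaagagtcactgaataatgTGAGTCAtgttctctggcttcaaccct
MMP13 upstream, next motif, open in the CTR list only: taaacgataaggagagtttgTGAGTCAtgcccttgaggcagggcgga

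Promoter sequences of 5 members, MMP7, MMP8, MMP10, MMP20 and MMP27, were taken from RefSeq (GRCh38.p14). MMP1, MMP3, MMP12 and MMP13 had no entry. Within 250 bases before the start site, AP-1 was found in MMP7 alone, 67 bases before it, against 4.2% of 35116 promoters. TATAAA, searched on both strands, was found in 4 of the 5 members and in 10.7% of all promoters. It lay 30 bases before the start site in MMP7 and 31 bases before it in MMP10, but further from it in MMP20 (72 bases) and MMP8 (110 bases). The last 80 bases before the start sites of MMP7 (102530748 to 102530827) and MMP10 (102780629 to 102780708), minus strand, are shown because peaks of both lists covered these promoters. Capitals mark AP-1 and TATAAA.
MMP7: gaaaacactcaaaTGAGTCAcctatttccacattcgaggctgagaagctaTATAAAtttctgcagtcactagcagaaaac
MMP10: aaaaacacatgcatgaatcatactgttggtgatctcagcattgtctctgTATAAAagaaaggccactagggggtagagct

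The transgenes and cell type markers were looked at first. The p63 list had 2 open regions with the summit in a coding exon of TP63, with a fold enrichment of up to 14.6, and the CTR list had 0. KLF4 had 1 such region in both lists, with a fold enrichment of 6.07 in CTR and 8.37 in p63. Fold enrichment is the ratio of reads at the summit to the local background. Promoters, here a summit within 1 kb of a TSS, were open in both lists for 7 of 8 fibroblast genes, COL3A1 being the exception. Of 6 epithelial and keratinocyte genes 1 (CDH1) was open in CTR and 2 in p63, which added EPCAM. Of the blood genes PTPRC and CD3E, PTPRC was open in both lists, and of the endothelial genes PECAM1 and CDH5 neither was open. Background coverage was 1.18 reads in CTR and 1.13 in p63, and an open region had at least 15 reads at its summit.

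The cluster was sparse in strong regions. Its open regions had a median −log10 q of 13.8 in CTR and 14.4 in p63, against 22.6 and 23 over all regions. The median number of reads at the summit was 19 in CTR and 19.5 in p63, against 33 in either full list. Of the 14 loci that reached the threshold in either list, 2 lay within 1 kb of a start site, 3 in introns and 9 in intergenic sequence. Windows around the members covered 357 kb and held 3.36 CTR regions and 2.24 p63 regions per 100 kb, against 2.60 and 2.84 in the same windows around all protein-coding genes.

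**Figure D1:**
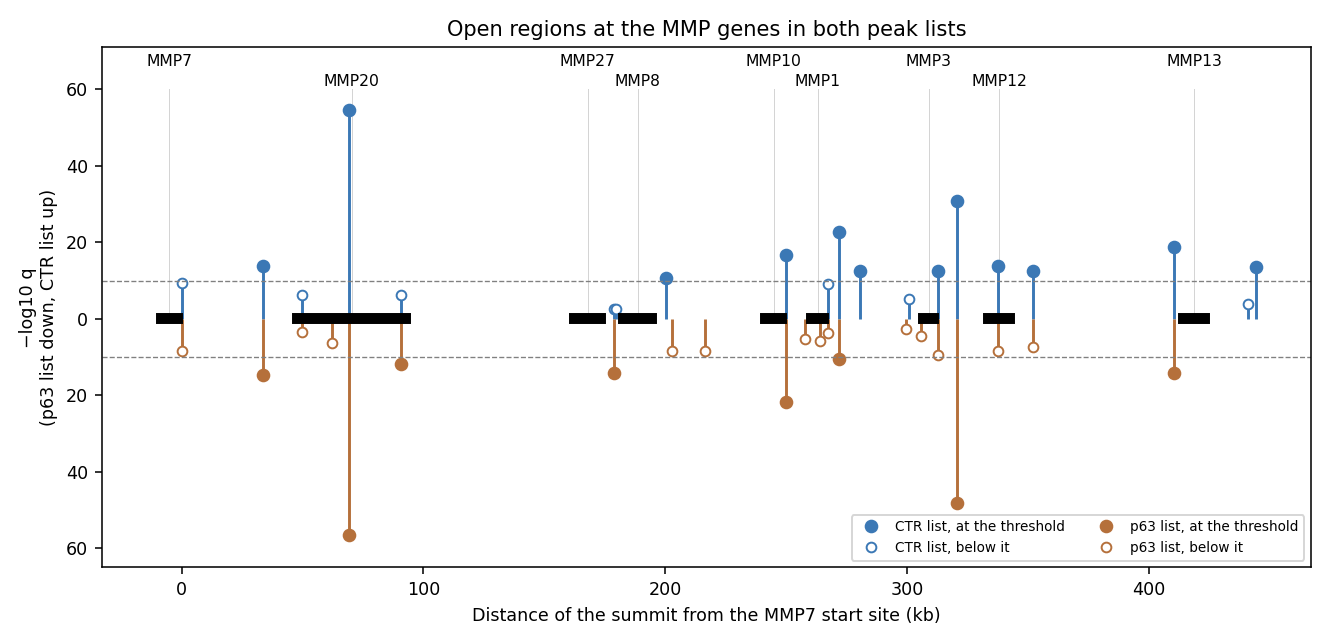
Open regions along the MMP cluster. The x axis gives the distance of each summit from the MMP7 start site in kb and the y axis the −log10 q, upwards for the CTR list and downwards for the p63 list; black boxes are genes, filled points reach the threshold of 10 (dashed) and empty points do not. The strongest peaks of both lists, 54.7 and 56.5, lay within MMP20.

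Most promoters of the cluster lacked an open region. In the CTR list 2 of 9 members, MMP10 and MMP3, had an open promoter, against 64.3% of 20033 protein-coding genes. In the p63 list 1 of 9, MMP10, had an open promoter, against 64.8%. MMP7 and MMP1 had promoter peaks just under the threshold in the CTR list. The promoters of MMP8, MMP12, MMP13, MMP20 and MMP27 had no peak in either list at any threshold.

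**Figure D2:**
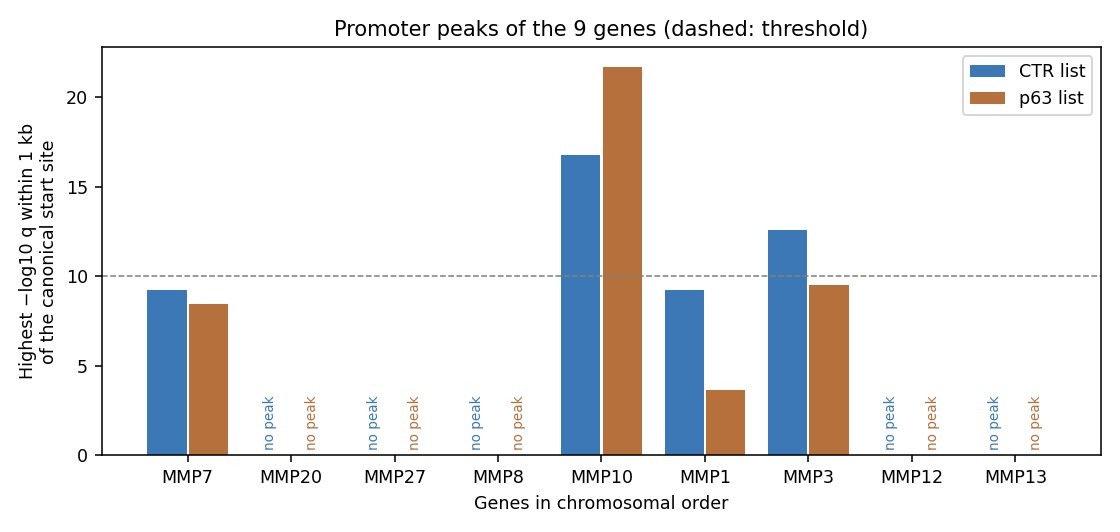
Promoter peaks of the 9 MMP genes. Bars give the highest −log10 q of a peak with the summit within 1 kb of the canonical start site, in the CTR list and the p63 list, for the genes in chromosomal order; the dashed line is the threshold of 10. MMP10 passed it in both lists (16.8 and 21.7), MMP3 in the CTR list only (12.6 and 9.54), and 5 genes had no peak.

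Among the stromelysins, which cleave proteoglycans, laminin and fibronectin and activate other MMPs, MMP10 and MMP3 both had a promoter peak in both lists. MMP10 (ENSG00000166670.10, 102770502 to 102780628) had a peak 26 bp from its start site, at 102780420 to 102780880 in CTR and 102780534 to 102780759 in p63. The enrichment over background was 9.73-fold in CTR and 11.7-fold in p63, with 21 reads (95% Poisson interval 13 to 32.1) and 24 reads (15.4 to 35.7) at the summit. Scaled by background coverage, the p63/CTR ratio of reads was 1.19 (exact 95% interval 0.637 to 2.25), which includes 1. MMP10 thus had the only promoter of the cluster that was open in both lists.

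MMP3 (ENSG00000149968.12, 102835801 to 102843609) had a promoter peak 78 bp upstream of its start site. It was at 102843464 to 102843947 in CTR, with a fold enrichment of 8.26, a −log10 q of 12.6 and 17 reads (9.9 to 27.2). The p63 peak, at 102843591 to 102843905, had a −log10 q of 9.54, a fold enrichment of 7.05 and 14 reads (7.65 to 23.5). The promoter was CTR-only by the threshold, but the ratio of 0.86 (0.392 to 1.85) showed that a difference was not detectable at this depth. An AP-1 motif lay within 100 bp of either summit.

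A stronger region lay 7.9 kb upstream of MMP3. It was at 102851139 to 102851715 in CTR, with a fold enrichment of 12.7 and 36 reads (25.2 to 49.8), and at 102851177 to 102851691 in p63, with a fold enrichment of 16.1 and 52 reads (38.8 to 68.2). Its −log10 q was 30.7 in CTR, at percentile 80.7 of that list, and 48.3 in p63, at percentile 90.1. The p63/CTR ratio of reads was 1.51 (0.967 to 2.38), so this highest open region of the stromelysin genes was nominally stronger with p63 while its interval still included 1. It holds the AP-1 motif printed for MMP3.

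The collagenases, which cut fibrillar collagen, are MMP1, MMP8 and MMP13. At MMP1 (ENSG00000196611.6, 102789401 to 102798160) the promoter peak lay 52 bp from the start site, at 102798116 to 102798384 in CTR and 102798193 to 102798500 in p63. Its fold enrichment was 5.52 in CTR and 3.84 in p63, its −log10 q 9.21 and 3.63, and its coverage 20 reads (12.2 to 30.9) and 11 reads (5.49 to 19.7). The peak was below the threshold in both lists, and the ratio of 0.574 (0.249 to 1.26) included 1. The CTR summit had an AP-1 motif within 100 bp. The p63 summit, which lay elsewhere in the peak, had none within 100 bp but 1 within 250 bp.

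Upstream of MMP1 both open regions of the CTR list were lower or missing in the p63 list. The region 4.37 kb upstream, at 102802299 to 102802890 in CTR and 102802442 to 102802612 in p63, had a fold enrichment of 9.49 in CTR and 7.0 in p63. Its coverage was 33 reads (22.7 to 46.3) in CTR and 17 reads (9.9 to 27.2) in p63, a ratio of 0.538 (0.281 to 0.994). This was the only locus of the cluster whose ratio interval lay wholly below 1, by a narrow margin, and it reached the threshold in both lists. The region 13 kb upstream, at 102811087 to 102811352, had a fold enrichment of 8.26 and 17 reads (9.9 to 27.2) in CTR and no peak in p63. Neither held an AP-1 motif near its summit, and the second held a CTCF motif. Both lie within WTAPP1, a transcribed pseudogene on the opposite strand that overlaps 10 of the 27 loci.

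MMP8 (ENSG00000118113.12, 102711796 to 102727050), the collagenase best known from neutrophils, had 1 open region of the CTR list at 102730227 to 102731273, 6.16 kb upstream of its canonical start site. Its fold enrichment was 6.61 with 19 reads (11.4 to 29.7), and the p63 list had no peak over it. Its −log10 q of 10.8 was just inside the threshold. The p63 list had 2 weaker peaks further upstream, with a −log10 q of 8.38 at 102733422 to 102733704 and of 8.46 at 102746909 to 102747122, where the CTR list had none.

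MMP13 (ENSG00000137745.13, 102942995 to 102955732) had no promoter peak but an open region on either side. Beyond its 3′ end, 14.6 kb downstream of the start site, the region at 102940863 to 102941250 in CTR and 102940914 to 102941473 in p63 had a fold enrichment of 10.6 and 8.93. Its coverage was 22 reads (13.8 to 33.3) and 18 reads (10.7 to 28.4), a ratio of 0.854 (0.432 to 1.67). The region 19.3 kb upstream, at 102974768 to 102975234, had a fold enrichment of 8.31 and 19 reads (11.4 to 29.7) in CTR and no peak in p63. This CTR-only region was the one with 2 AP-1 motifs near its summit.

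MMP7 (ENSG00000137673.9, 102520508 to 102530750), or matrilysin, is a small protease without the hemopexin domain and is made mainly by epithelial cells. Its promoter peak covered exon 1, with a fold enrichment of 6.88 in CTR and 6.58 in p63 and with 14 reads (7.65 to 23.5) and 13 reads (6.92 to 22.2). The −log10 q was 9.25 and 8.46, so the promoter was just below the threshold in both lists, and the ratio was 0.97 (0.42 to 2.22). This was the peak over the AP-1 motif printed for the MMP7 promoter.

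MMP12 (ENSG00000262406.3, 102862736 to 102874982), the macrophage elastase, had 2 open regions in CTR and 0 in p63. The region in intron 4, at 102868186 to 102868590 in CTR, had a fold enrichment of 8.5 in CTR and 6.58 in p63. Its coverage was 19 reads (11.4 to 29.7) and 13 reads (6.92 to 22.2), a ratio of 0.715 (0.324 to 1.53). The region 7.85 kb upstream, at 102882525 to 102883130 in CTR, had a fold enrichment of 8.26 and 6.11, with 17 reads (9.9 to 27.2) and 12 reads (6.2 to 21.0), a ratio of 0.737 (0.321 to 1.64). Both were CTR-only by the threshold, had a weaker peak in the p63 list, and had intervals that included 1.

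MMP20 (ENSG00000137674.4, 102576832 to 102625332), or enamelysin, is a protease of developing tooth enamel. Its intron 6 held the strongest region of the cluster, at 102599400 to 102600282 in CTR and 102599436 to 102600312 in p63. Its fold enrichment was 15.6 and 15.4, with 62 reads (47.5 to 79.5) and 65 reads (50.2 to 82.8), a ratio of 1.09 (0.761 to 1.58). It stood at percentile 93.5 in CTR and 93 in p63 and was the best covered locus of the cluster.

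In intron 1 of MMP20, which is overlapped by the antisense gene MMP20-AS1, a region 4.04 kb downstream of the start site was p63-only. Its fold enrichment was 5.51 in CTR, at 102621030 to 102621465, and 7.99 in p63, at 102621019 to 102621429. The coverage was 11 reads (5.49 to 19.7) and 16 reads (9.15 to 26.0), a ratio of 1.52 (0.662 to 3.62). An AP-1 motif was centred on the p63 summit. A region of both lists at 102564195 to 102564598 in CTR, which lay between MMP7 and MMP20, entered through an internal start site of MMP20, with a fold enrichment of 8.46 in CTR and 8.43 in p63 and a ratio of 1.15 (0.591 to 2.27).

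MMP27 (ENSG00000137675.5, 102691487 to 102705769), a little studied member, had the highest p63/CTR ratio among the 14 loci with a peak in both lists. The region 3.9 kb upstream of its start site, between MMP27 and MMP8, had a fold enrichment of 3.67 in CTR at 102709419 to 102709675 and 8.91 in p63 at 102709411 to 102709793. Its coverage was 7 reads (2.81 to 14.4) in CTR and 18 reads (10.7 to 28.4) in p63, a ratio of 2.69 (1.07 to 7.61). It was p63-only by the threshold and was the only locus whose ratio interval lay above 1. The reads were counted at the summit of each list, and these summits differed, so the ratio does not compare 1 position. The 7 reads in CTR were also the lowest count of the cluster in that list. The AP-1 motif shown for MMP27 lay 27 bp from the p63 summit, and the CTR summit had none within 100 bp but 1 within 250 bp.

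**Figure D3:**
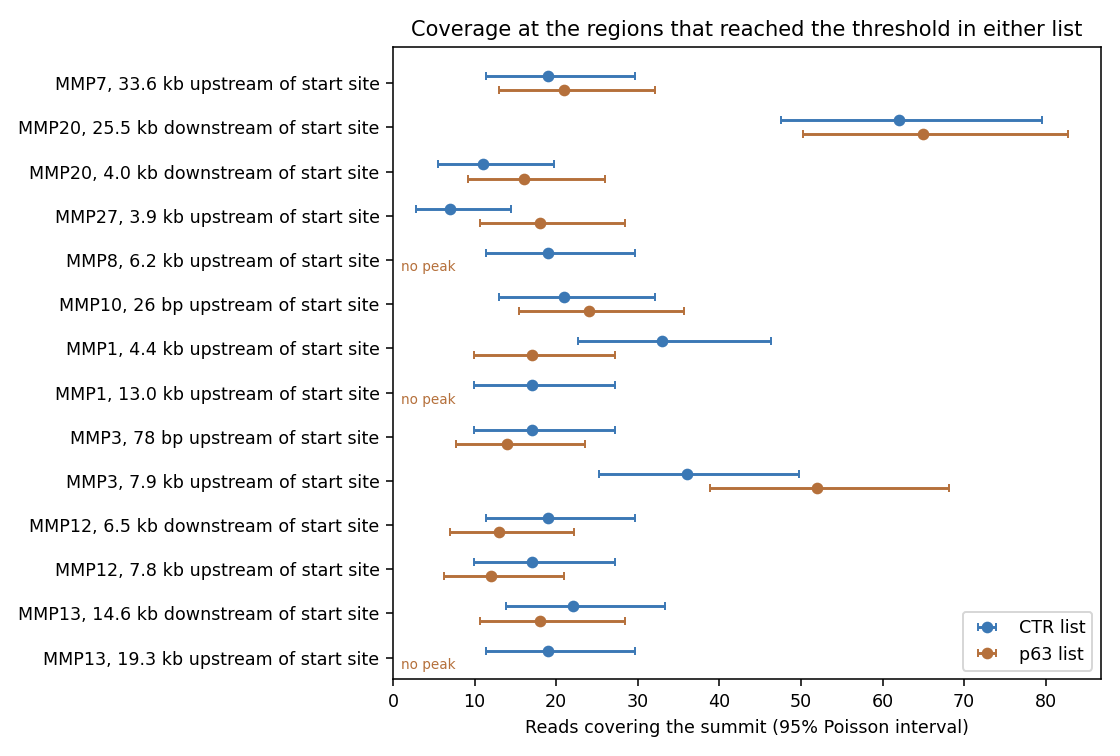
Reads at the summits of the 14 loci that reached the threshold in either list. The x axis gives reads covering the summit with 95% Poisson intervals, for the CTR list and the p63 list, and the y axis names the nearest gene and the distance from its canonical start site; "no peak" marks a list without any peak there. The MMP20 region 25.5 kb downstream has the most reads in both lists (62 and 65), and the 3 regions without a p63 peak have 17 to 19 reads in CTR.

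To see how the threshold divided the cluster, open regions of either list were intersected with those of the other. Of 12 CTR regions 6 were CTR-only (50%, 95% Wilson interval 25.4 to 74.6%), against 16.5% of all regions of that list. Of 8 p63 regions 2 were p63-only (25.0%, 7.15 to 59.1%), against 23.9% of all regions. The CTR-only share was thus above that of the whole list and the p63-only share was near it. Without any p63 peak were 3 of the 12 CTR regions, those at MMP8, MMP1 and MMP13, against 3.29% of all CTR regions. Of the 8 p63 regions 0 were without a CTR peak, against 12.0% of all p63 regions.

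Weak regions cross a threshold more readily than strong ones, and the cluster held mostly weak ones. Among CTR regions with a −log10 q from 10 to under 20, 6 of 9 of the cluster were CTR-only (66.7%, 35.4 to 87.9%), against 35.3% of all such regions. Its lower bound thus lay next to the share of the whole list. Among p63 regions of that strength 2 of 5 were p63-only, against 42.6%. Without any peak in the other list were 3 of the 9 CTR regions, against 7.26% of all such regions. For the 5 p63 regions it was 0, against 20.2%. By fold enrichment, 10 of 12 CTR regions were lower in p63 or had no p63 peak, against 51.4% of all CTR regions. The MMP10 promoter and the region 7.9 kb upstream of MMP3 were higher. By reads scaled to background coverage it was 8 of 12, against 49.9%, since the region in intron 6 of MMP20 and that between MMP7 and MMP20 then were higher in p63 as well. These regions were chosen for their strength in CTR. With a −log10 q from 10 to under 20, 8 of 9 were lower or missing by fold enrichment, against 56.7%. From the other side, 4 of 8 p63 regions were lower in CTR or had no CTR peak, against 67.8% of all p63 regions.

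Below the threshold the lists held 13 further loci. MMP7, MMP1 and intron 8 of MMP20 had such a peak in both lists, the last with a fold enrichment of 5.51 in CTR and 4.23 in p63. Of 8 CTR peaks below the threshold 3 had no p63 peak (−log10 q from 2.56 to 5.19), against 44.4% of all such CTR peaks. Of 13 p63 peaks below it 7 had no CTR peak (2.71 to 8.46), against 47.2%, so that neither share stood far from that of its list. The latter included intron 6 of MMP1 at 102794350 to 102794675 (12 reads) and intron 9 of MMP3 (9 reads). The summit in MMP1 lay 137 bp from a start site of MMP1 other than the canonical one.

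Among loci with a peak in both lists, fold enrichment was compared in pairs. Over the 6 pairs open in both lists the median p63/CTR log2 ratio of fold enrichment was −0.01, against 0.05 over all 47188 such pairs, and it ranged from −0.44 to 0.34. Over the 11 pairs with at least 1 open region, 1 was 1.5-fold higher with p63 (the region upstream of MMP27), against 8.28% of all such pairs, and 0 were 1.5-fold lower, against 5.7%. Over all 14 pairs the median was −0.15 (−0.53 to 1.28), against 0.03 over all pairs of the lists, and 10 of 14 were lower in p63, against 45.2%. Among these 10, the region in intron 6 of MMP20 and that between MMP7 and MMP20 had ratios of scaled reads above 1 (1.09 and 1.15). The median ratio of scaled reads was 0.915 over the 14 pairs and 1.12 over the 6 open in both lists, against 1.04 for either kind of pair over the lists. The interval of the ratio of reads included 1 for 12 of 14 loci. The 2 others were the region upstream of MMP27, above 1, and that 4.37 kb upstream of MMP1, below 1, against 7.53% and 1.6% of all pairs, and these intervals were not adjusted for the number of loci.

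AP-1 motifs lay near most open loci of the cluster, and the p63 site, which was rare over all regions, was not found. Of the 14 loci 8 had an AP-1 motif within 100 bp of the summit (57.1%, 95% Wilson interval 32.6 to 78.6%), against 25.8% of the 71611 regions of both lists joined. The latter include the open promoters, which 12875 of 20033 protein-coding genes had in CTR. Of the 14 cluster loci 2 lay within 1 kb of a start site. The shares were not matched for this, so they do not show an excess particular to the cluster. With peaks below the threshold included, it was 9 of 27 loci (33.3%, 18.6 to 52.2%), against 22.3%, and this interval includes the share of all loci. By list, 6 of 12 CTR regions and 5 of 8 p63 regions had one, against 26.9% and 25.4% of all regions. The motif was present in shared, CTR-only and p63-only regions alike, and both p63-only regions had it. The p53/p63 family site, of 20 bases in which 4 letters of the cores had to match, was searched with at most 3 mismatches at the other 16 positions. It was found near 0 of 8 p63 regions of the cluster, against 3.78% of all p63 regions, and near 0 of the 12 CTR regions, against 0.932%. With shares this low, a count of 0 among so few regions does not set the cluster apart.

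In 16 of the 20 CTR peaks and 16 of the 21 p63 peaks, peaks below the threshold included, no pair of cores was present at all. The closest sequence, with 4 mismatches, lay 81 bp from the summit of a p63 peak at 102788288 to 102788544, between MMP10 and MMP1, which was below the threshold (−log10 q 5.4, 10 reads) and had no CTR peak. The site at 102788478 to 102788497 on the plus strand of hg38 is shown with the fixed letters of both cores in capitals.
Closest match to the p63 site: gagCttGcttctgCctGtgt

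Other motifs were rarer. TEAD motifs lay near 3 of 12 CTR regions and 2 of 8 p63 regions, against 8.9% and 8.24% of all regions, and in CTR they included the MMP10 and MMP3 promoters. CTCF motifs, with at most 1 mismatch, lay near 3 of 12 and 2 of 8, against 9.78% and 8.4%, and included the MMP10 promoter. KLF motifs lay near 0 regions of the cluster in either list, against 7.4% and 7.14%. With so few regions none of these shares was set against another.

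**Figure D4:**
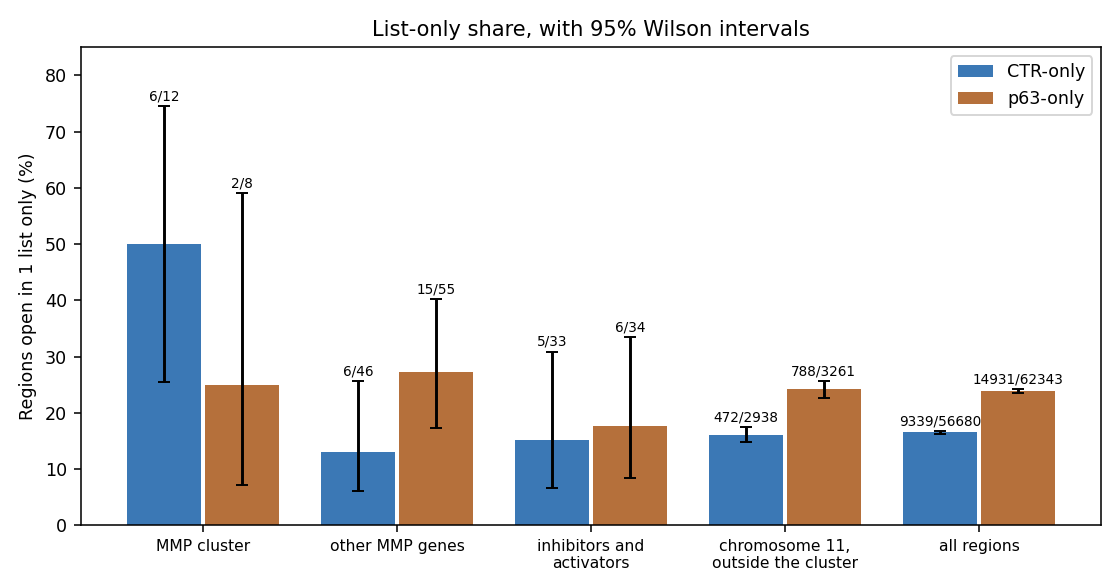
Share of open regions found in 1 list only. Bars give the percentage of CTR regions that were CTR-only and of p63 regions that were p63-only, with 95% Wilson intervals and the counts above, for the MMP cluster, 14 other MMP genes, 8 inhibitors and activators, chromosome 11 outside the cluster and all regions. The CTR-only share of the cluster, 50%, lies above the others (13 to 16.5%), on 12 regions.

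The 14 MMP genes located elsewhere and 8 genes for inhibitors and activators of MMPs served for comparison. Near the other MMP genes, 6 of 46 CTR regions were CTR-only (13%, 6.12 to 25.7%), against 16.5% of all CTR regions. Of 55 p63 regions 15 were p63-only (27.3%, 17.3 to 40.2%), against 23.9% of all p63 regions. Promoters of 7 of these 14 genes were open in CTR and 6 in p63, against 64.3% and 64.8% of protein-coding genes. MMP24 was open in CTR only. MMP19 had the strongest region among them, with a −log10 q of 99.5 in CTR and 88.7 in p63. MMP2, the gelatinase of fibroblasts, had 8 CTR regions with 0 CTR-only and 12 p63 regions with 4 p63-only. These counts are too small to be set against the shares of all regions.

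The inhibitors were TIMP1, TIMP2, TIMP3, TIMP4 and RECK, and the plasminogen activator genes were PLAU, PLAUR and PLAT. Near these 8 genes, 5 of 33 CTR regions were CTR-only (15.2%, 6.65 to 30.9%), against 16.5% of all CTR regions. Of 34 p63 regions 6 were p63-only (17.6%, 8.35 to 33.5%), against 23.9% of all p63 regions. All 8 promoters were open in both lists, whereas 1 of the 9 cluster promoters was. Over all protein-coding genes, 64.3% were open in CTR and 64.8% in p63. TIMP2 had the strongest region, with a −log10 q of 111 in CTR and 137 in p63. The Wilson intervals of the CTR-only share overlapped between the cluster and either list of genes. For the other MMP genes the overlap was narrow, from 25.4% (lower bound of the cluster) to 25.7% (their upper bound). Overlap of intervals does not show that the shares are alike. The open regions of the cluster were also weaker, with a median −log10 q in CTR of 13.8 against 25.7 near the other MMP genes and 26.1 near the inhibitors and activators. The part of this difference in strength in the CTR-only shares was not tested beyond the strength classes given above.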

How the data were processed

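ATAC-seq of 2 CTR and 2 p63 samples was analysed from 1 deposited peak list per group. Per the study's methods and the labels, the authors mapped reads to hg38 with Bowtie2 2.3.4.3 and used MACS2 for 1 list from the pair of replicates. The MACS2 version and options, removal of duplicates and the shift for the transposase are not given in the sources used here. The deposited columns used were fold enrichment (a ratio), −log10 p and −log10 q and the summit offset in bp. The deposited score, which repeats the −log10 q, was not used.

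Peaks on chromosomes 1 to 22, X and Y were kept. Reads at a summit were recovered from fold enrichment and −log10 p, as reads plus 1 over background plus 1 and the upper Poisson tail. All but 16 CTR and 19 p63 peaks gave a whole number, and ratios were divided by the ratio of background coverage, 0.958. A ratio sets the reads at the CTR summit against those at the p63 summit, which can differ in position. GENCODE release 44 gave genes and start sites, and RefSeq the promoters. Motifs were searched on both strands within 100 bp of summits. Scripts were checked on simulated data (Python 3.11.15, scipy 1.17.1). Peaks are not replicates, so no test was run. The depth of single samples is unknown.

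All 9 members were named, with each open region. The members, lists and motifs were chosen with earlier results of these data known. The alternatives were other thresholds, windows, start sites, overlap rules, pair measures and motif settings. Of the inhibitors and activators chosen, 1 gene is not reported here and is left out of the group's values.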

Additional observations from a re-analysis of the deposited data

How the results depend on the processing

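Depth is a limit, since an open region of the cluster rested on as few as 16 reads. At the MMP3 promoter, 17 reads in the CTR list reached the threshold and 14 reads in the p63 list did not. No paired analysis was possible because each list pools the replicates of its group, and no replicate could be left out for the same reason. A count was called alike within 1.5 times, a share within its Wilson interval and a log2 ratio within 0.1, and by this 35 of the values under an alternative were alike and 16 moved. Without a threshold the cluster held 20 CTR peaks and 21 p63 peaks, of which 6 CTR and 7 p63 peaks had no partner, against 21.4% and 27.1% of all peaks. A −log10 q of 20 left 3 regions in either list, 1 CTR-only and 1 p63-only. At 8, chosen after seeing the data, there were 13 p63 regions and 4 p63-only regions, against 14 CTR and 5 CTR-only regions. With absence at any threshold required, the CTR-only regions fell to 3 and the p63-only regions to 0. An overlap of 50% of both peaks gave 4 p63-only regions, and a 50 kb window gave 13 p63 regions. The median log2 ratio over pairs open in both lists was 0.12 within a 10 kb window and 0.17 for reads over background coverage, also added later. As a difference of −log10 q percentiles it was 0.186 percentage points. The sign of this median thus depended on the setting. A stricter threshold or absence rule keeps fewer regions by construction, and the cause of the other differences was not tested.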

Other observations

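Between the outermost members and 20 kb beyond them, 11 further loci lay outside the windows, of which 5 were open in at least 1 list. The strongest, at 102760195 to 102760902 in CTR, lay in WTAPP1 20.1 kb downstream of the MMP10 start site, with a fold enrichment of 13.3 in CTR and 10.4 in p63 and with 52 and 35 reads, a ratio of 0.703 (exact 95% interval 0.444 to 1.1). Between MMP12 and MMP13, a CTR-only region at 102905725 to 102906136 had 23 reads in CTR and 10 in p63, a ratio of 0.454 (0.193 to 0.992), and an AP-1 motif near its CTR summit. Between MMP7 and MMP20, a p63-only region at 102560596 to 102560925 had 13 reads in CTR and 22 in p63, a ratio of 1.77 (0.852 to 3.82), without a p63 site or AP-1 motif near either summit.

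A p63 family site with 3 mismatches was present in this stretch of chromosome 11, but outside the windows of the members. It lay at 102685540 to 102685559 (hg38, plus strand), 57 bp from the CTR summit of a peak 20.4 kb downstream of the MMP27 start site, and reads tgtCttGttcatgCttGttt with the fixed letters in capitals. The peak had 6 reads in CTR and 11 in p63, a ratio of 1.91 (0.649 to 6.3), and a −log10 q of 1.79 and 6.07. Its p63 summit had no pair of cores within 100 bp.

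The list-only regions of the cluster were also counted by stretch. From MMP7 to MMP8 there were 5 open loci, of which 2 were shared, 2 p63-only and 1 CTR-only. From MMP10 to MMP13 there were 9, of which 4 were shared, 5 CTR-only and 0 p63-only. Over all regions, 16.5% of the CTR list were CTR-only and 23.9% of the p63 list were p63-only. This division at the gap between MMP8 and MMP10 was made after the values were seen, and no test was run on it. Counts this small do not show that the list-only regions were spread unevenly.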
